A study of Mus musculus with 18 samples.

Results

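The miR-193 and miR-365 group is made of 2 small clusters of miRNA hairpins, each with one miR-193 hairpin and one miR-365 hairpin. The 6 members described here are mmu-miR-365-3p, mmu-miR-365-1-5p, mmu-miR-365-2-5p, mmu-miR-193a-3p, mmu-miR-193a-5p and mmu-miR-193b-3p. They were taken by name from the 1966 mature miRNAs of the table, and 6 of 6 were among the 726 miRNAs with enough reads to be tested. The members were chosen by their levels in the sample groups of these same libraries, so their differences between groups are given as a description. The limma model gives their size and error, its calls on the members were set by that choice, and no p-value is drawn from them. Small RNA was sequenced from wildtype adrenal glands without the CRE driver (AG, n = 3), from R26 IGF2BP1 tumors (TI, n = 7) and from tumors with the IMP1/MYCN transgenes, i.e. IGF2BP1 and MYCN (TIM, n = 8). The transgenes lie at the Rosa26 locus behind a stop cassette and lack their native 3' UTRs, and the tumor mice carry an iCRE driven by Dbh, which removes the cassette in sympathoadrenal cells. In the labels 1 TI mouse is IGF2BP1 +/- and 6 are +/+, and the sites named include tumor adrenal gland and tumor spine. The columns of the table name the group and not the mouse, so genotype and site could not be tied to a value. Libraries are therefore numbered in the order of their columns (TI 1, TIM 2), and nothing in the columns says which mouse each came from. In TIM mice the IGF2BP1 and MYCN transgenes lie on opposite alleles of the Rosa26 locus. TIM mice therefore differ from the +/+ TI mice in IGF2BP1 transgene dose as well as in MYCN. The part of each in the TIM minus TI differences was not tested. TI and TIM are each compared with the same 3 AG libraries. The age of each sequenced mouse is not given in the sources used here. Tumor mice were culled when their tumors required it, which was earlier for mice with both transgenes, so age and tumor type cannot be told apart.

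The AG libraries held 21644743 to 23332704 reads on miRNAs, the TI libraries 11802837 to 21268124 and the TIM libraries 11641696 to 23435621. Levels are in CPM, the reads of a miRNA relative to the library total times its TMM factor, a scaling factor that evens out differences in composition. A miRNA with 3 reads had 0.139 to 0.140 CPM in AG, 0.160 to 0.272 CPM in TI and 0.101 to 0.209 CPM in TIM. These limits hold counting error alone. A single miRNA, miR-148a-3p, took 4.19 to 6.94% of the reads in AG, 2.29 to 61.9% in TI and 6.53 to 44.2% in TIM. In bulk tissue fewer cells of a type and less RNA per cell cannot be told apart.

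A miRNA hairpin is cut into a 5p and a 3p arm, one of which is usually kept in an Argonaute protein, where bases 2 to 8 of the mature strand, the seed, pair with target mRNAs. miR-193b and miR-365 are made from one primary transcript, are abundant in brown fat and have been described as promoting the brown fat program. miR-193 family members have also been studied as growth-restraining miRNAs that repress mRNAs of cell cycle and survival genes such as CCND1 and MCL1. The mouse adrenal gland lies in fat, and how much of it each dissected sample held is not given in the sources used here.

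The sequences of the members (RefSeq, GRCm38.p6, 6 of 6 matched) show which of them can be told apart by their reads and which share a seed. They are written 5' to 3', with the seed in capitals. The other arm of the miR-193b hairpin, miR-193b-5p, is not a member and is printed for comparison.

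miR-193a-3p: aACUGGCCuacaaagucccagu
miR-193b-3p: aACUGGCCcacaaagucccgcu
miR-193a-5p: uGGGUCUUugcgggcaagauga
miR-193b-5p: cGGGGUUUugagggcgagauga
miR-365-3p: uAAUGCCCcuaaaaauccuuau
miR-365-1-5p: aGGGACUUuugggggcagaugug
miR-365-2-5p: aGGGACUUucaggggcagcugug

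miR-193a-3p and miR-193b-3p had the same seed, which 2 of the 1679 mature miRNAs of the reference shared, and were identical at 19 of 22 bases. They differed by U9C, A20G and G21C, with miR-193a-3p first and positions counted from its 5' end. The 5p arms of both miR-365 hairpins also shared a seed, again held by 2 mature miRNAs, were identical at 20 of 23 bases and differed by U10C, G11A and A19C, with miR-365-1-5p first. The seed of miR-365-3p was its own alone. The 5p arms of the miR-193 hairpins differed at 5 positions, U1C, U5G, C6U, C11A and A16G with miR-193a-5p first, and 2 of these lay within the seed.

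Mir193a and Mir365-2 lie on the plus strand of chromosome 11 at chr11:79711969-79712034 and chr11:79726400-79726511, with 14365 bp between them. In RefSeq these hairpins overlapped no other annotated gene and lay between Gm11205 and the lncRNA gene 9130204K15Rik, with Rab11fip4 as the nearest protein-coding gene on the left. Mir193b and Mir365-1 lie on the plus strand of chromosome 16 at chr16:13449523-13449601 and chr16:13453840-13453926, with 4238 bp between them, and both lie within the spans of the lncRNA genes Gm32817 and Gm53058. The miR-365 hairpins are shown because their 3p arms are the same while their 5p arms are not, with both arms in capitals.

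Mir365-2: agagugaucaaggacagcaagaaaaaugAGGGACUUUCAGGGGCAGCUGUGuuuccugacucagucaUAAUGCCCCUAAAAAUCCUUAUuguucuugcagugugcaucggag
Mir365-1: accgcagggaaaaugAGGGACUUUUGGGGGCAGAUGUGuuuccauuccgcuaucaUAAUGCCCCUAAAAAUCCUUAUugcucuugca

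Reads of miR-365-3p therefore could not be assigned to a locus, whereas reads of miR-365-2-5p stood for the chromosome 11 hairpin and reads of miR-365-1-5p for that on chromosome 16. The 5p arms differ at only 3 bases, and how reads with several matches were treated is not given in the sources used here.

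Every member had a lower mean in both tumor types than in wildtype glands. On the log2(CPM + 1) scale the log2 fold changes lay between -5.02 and -1.79 for TI and between -4.76 and -1.04 for TIM, with medians over the members of -2.85 and -2.65. Over all 726 miRNAs the medians were -0.01 and 0.18. An adjusted p under 0.05 in limma was reached as lower by 6 of 6 members in TI, where 29.3% of all tested miRNAs reached it, and by 6 of 6 in TIM, where 25.9% did. miR-365-2-5p reached 1 CPM in no tumor library and so entered the model only through AG, where it is high. Every TI library lay below every AG library for 6 of 6 members, as for 24.4% of all miRNAs, and every TIM library did so for 4 of 6 members, as for 22.0% of all miRNAs. These counts were fixed by the way the members were chosen, and nothing is read from them. They also moved with single libraries. Without AG 3, the difference of miR-193b-3p in TIM went from -2.03 to -1.73 and no longer passed, and without AG 1 that of miR-365-1-5p in TIM went from -1.04 to -0.87 and no longer passed.

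**Figure D1:**
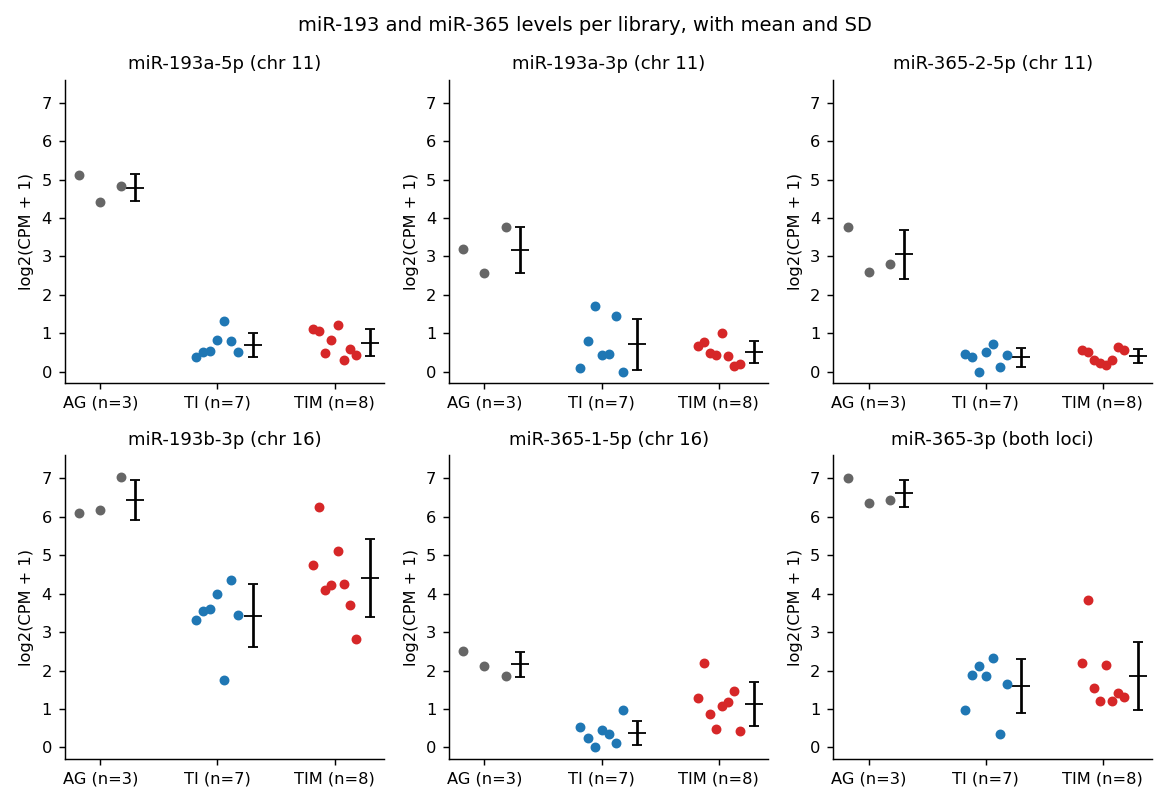
Levels of the 6 members on the log2(CPM + 1) axis, 1 panel per member with its chromosome, 1 point per library for AG, TI and TIM, and the mean with its SD beside each group. The tumor libraries sit below AG in every panel except for TIM 2, which reaches the AG range for miR-193b-3p at 75.6 CPM and for miR-365-1-5p at 3.57 CPM.

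miR-365-3p, the arm that both miR-365 hairpins give, had the lowest log2 fold change of the members on the log2(CPM + 1) scale. It stood at 129, 81.9 and 86.5 CPM in AG. The TI libraries held 0.272 to 4.01 CPM with a median of 2.66 CPM. The TIM libraries held 1.30 to 13.2 CPM with a median of 1.79 CPM. The groups did not overlap with AG, and 13.2 CPM came from TIM 2, the next highest TIM library being at 3.57 CPM. AG averaged 99.0 ± 25.8 CPM (SD, n = 3), TI 2.29 ± 1.31 CPM (SD, n = 7) and TIM 3.48 ± 4.04 CPM (SD, n = 8). The AG mean was thus 43.2 times that of TI and 28.5 times that of TIM, and the log2 fold changes were -5.02 (standard error 0.52) and -4.76 (standard error 0.51). Counted from the lowest of 726 log2 fold changes, miR-365-3p came 9th in TI and 5th in TIM. The 1 added to CPM shrinks the differences of miRNAs near 0 CPM, so the order of the members depends on the scale. By the ratio of means, miR-193a-5p was below miR-365-3p in TI, at 41.7, but above it in TIM, at 37.2.

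At the chromosome 11 locus, miR-193a-5p was the arm with more reads in wildtype glands. It stood at 34.0, 20.3 and 27.4 CPM in AG, at 0.293 to 1.50 CPM in TI (median 0.440) and at 0.233 to 1.34 CPM in TIM (median 0.637). The tumor groups covered almost the same range, far under the lowest AG library. The AG mean of 27.3 ± 6.85 CPM (SD, n = 3) was 41.7 times that of TI and 37.2 times that of TIM, with log2 fold changes of -4.10 (standard error 0.26) and -4.04 (standard error 0.25).

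The opposite arm, miR-193a-3p, carries the seed of the miR-193 family. It stood at 8.14, 4.94 and 12.6 CPM in AG. In TI it ran from 0 reads in TI 7, which allows up to 0.208 CPM, to 2.29 CPM in TI 3, with a median of 0.374 CPM. In TIM it ran from 0.114 to 1.03 CPM with a median of 0.386 CPM. No tumor library reached the AG range. TI 1 held 1 read, and the TIM libraries held 2 to 23 reads. AG averaged 8.55 ± 3.84 CPM (SD, n = 3), TI 0.793 ± 0.877 CPM (SD, n = 7) and TIM 0.459 ± 0.305 CPM (SD, n = 8), with log2 fold changes of -2.47 (standard error 0.34) in TI and -2.66 (standard error 0.33) in TIM.

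miR-365-2-5p, the 5p arm that marks the chromosome 11 copy of miR-365, stood at 12.6, 5.04 and 5.92 CPM in AG. It reached at most 0.641 CPM in TI and 0.570 CPM in TIM, and TI 3 held 0 reads, which allows up to 0.264 CPM. The AG mean of 7.86 ± 4.15 CPM (SD, n = 3) was 25.3 times that of TI and 22.9 times that of TIM, with log2 fold changes of -2.68 (standard error 0.22) and -2.64 (standard error 0.22).

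At the chromosome 16 locus, miR-193b-3p kept the highest level of any member in the tumors. It stood at 67.8, 71.3 and 130 CPM in AG. The TI libraries held 2.35 to 19.3 CPM with a median of 10.8 CPM. The TIM libraries held 6.13 to 75.6 CPM with a median of 17.9 CPM. TIM 2 lay above 2 of the AG libraries, and 7 of the 8 TIM libraries lay below AG. AG averaged 89.8 ± 35.1 CPM (SD, n = 3), TI 11.03 ± 5.25 CPM (SD, n = 7) and TIM 25.7 ± 21.8 CPM (SD, n = 8), so that AG held 8.14 times the level of TI and 3.50 times that of TIM. The log2 fold changes were -3.01 (standard error 0.59) and -2.03 (standard error 0.58). Its other arm, miR-193b-5p, averaged 4.47 ± 1.62 CPM (SD, n = 3) over AG, 0.225 ± 0.0946 CPM (SD, n = 7) over TI and 0.524 ± 0.515 CPM (SD, n = 8) over TIM.

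miR-365-1-5p, the 5p arm that marks the chromosome 16 copy of miR-365, stood at 4.72, 3.36 and 2.64 CPM in AG. The TI libraries held 0 to 0.971 CPM with a median of 0.267 CPM, TI 3 having 0 reads. The TIM libraries held 0.348 to 3.57 CPM with a median of 1.19 CPM. TIM 2, at 3.57 CPM, again lay inside the AG range, and 7 of 8 TIM libraries lay below it. AG averaged 3.57 ± 1.06 CPM (SD, n = 3), TI 0.330 ± 0.320 CPM (SD, n = 7) and TIM 1.34 ± 1.02 CPM (SD, n = 8). The AG mean was 10.8 times that of TI, a larger ratio than the 8.14 of miR-193b-3p. It was 2.66 times that of TIM, the smallest ratio among the members. The log2 fold changes were -1.79 (standard error 0.31) and -1.04 (standard error 0.30).

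Between the tumor types, the intervals of the members from chromosome 16 lay above 0 and those from chromosome 11 crossed it. On the log2(CPM + 1) scale the TIM minus TI difference was 0.98 for miR-193b-3p (95% interval 0.05 to 1.91) and 0.74 for miR-365-1-5p (0.26 to 1.23), both from chromosome 16. It was -0.19 for miR-193a-3p (-0.73 to 0.35), 0.06 for miR-193a-5p (-0.35 to 0.47) and 0.04 for miR-365-2-5p (-0.31 to 0.39), the 3 members from chromosome 11. miR-365-3p, which both loci give, had 0.26 (-0.55 to 1.07). miR-193b-5p, the other arm of the miR-193b hairpin on chromosome 16 and not a member, had 0.25 (-0.13 to 0.64). Its interval crossed 0, so not every miRNA of that locus had an interval above 0. In limma 0 of 6 members passed between TIM and TI, where 5.23% of all miRNAs did. At an unadjusted p under 0.05 the number was 2, the members from chromosome 16. No share of all miRNAs stands beside that count, and nothing is read from it because the members were picked on these values. After adjustment on the recovered reads, 0 members passed with edgeR, where 3 of all miRNAs did. With DESeq2 1 member passed, where 123 of all miRNAs did. The means of 5 members were ordered AG, TIM, TI. Every TIM library lay below every AG library for 4 of 6 members, as for 22.0% of all miRNAs, a count fixed by the choice of members. The ranges of TIM and TI overlapped for every member. No share of all miRNAs stands beside that overlap, and nothing is read from it. For miR-365-1-5p the difference of 0.74 was larger than the SD of log2(CPM + 1) in TI (0.32) and in TIM (0.57), and for miR-193b-3p the difference of 0.98 lay between those of TI (0.82) and TIM (1.01). For the other 4 members it was smaller than the SD in either group. For miR-193a-3p the mean in TI was above that in TIM, by less than its SD in TI. The difference between the loci was itself not tested, since the members were picked on these values.

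**Figure D2:**
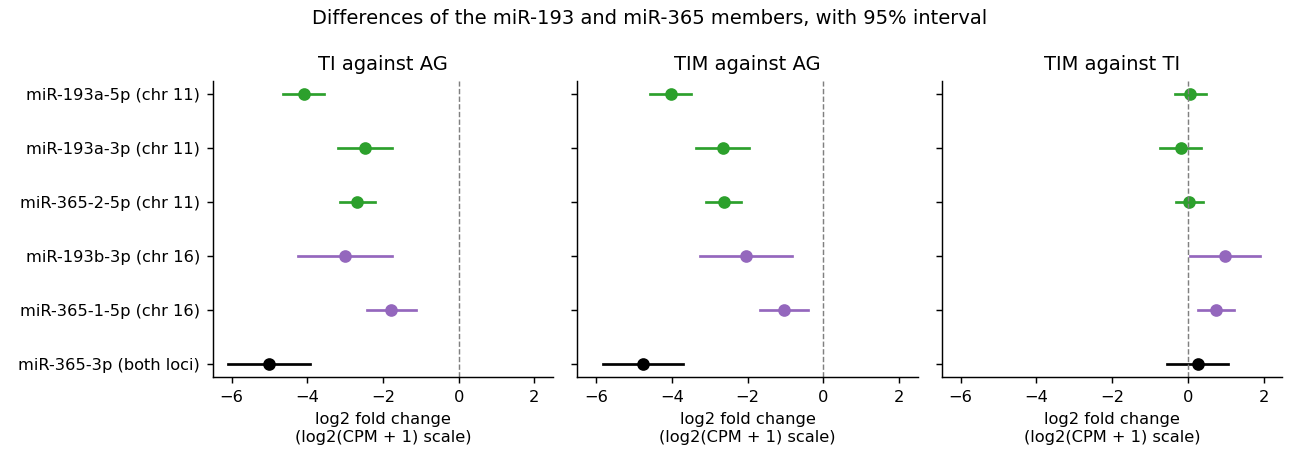
Log2 fold changes on the log2(CPM + 1) scale (horizontal axis) of the 6 members in TI against AG, TIM against AG and TIM against TI, with 95% intervals from limma. Green marks chromosome 11, purple chromosome 16 and black miR-365-3p. In TIM against TI the intervals of miR-193b-3p (0.05 to 1.91) and miR-365-1-5p (0.26 to 1.23) lie above 0 and the other 4 cross it.

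TIM 2 was the highest TIM library for miR-193b-3p, miR-365-1-5p and miR-365-3p, but was 2nd for miR-193a-3p, 3rd for miR-193a-5p and 4th of 8 for miR-365-2-5p. Without TIM 2, 7 of 7 TIM libraries lay below AG for every member. The TIM means then were 18.5 ± 8.90 CPM (SD, n = 7) for miR-193b-3p, 1.02 ± 0.529 CPM (SD, n = 7) for miR-365-1-5p and 2.09 ± 0.978 CPM (SD, n = 7) for miR-365-3p. The TIM minus TI differences were 0.71, 0.59 and -0.02 on the log2 scale, so that of miR-365-3p changed sign. TIM 2 also had the highest summed level of the TIM libraries for the promoting brown fat list described further on, at 24548 CPM. TIM 1 had 22168 CPM and TIM 5 had 21231 CPM, while AG ran from 70413 to 88444 CPM. The largest part of this sum was 1 miRNA, miR-26a-5p, with a mean of 41568 CPM over AG, 9459 CPM over TI and 9494 CPM over TIM. The sum thus mostly follows that miRNA and not the whole list. TI 5 had the highest sum of TI, 24024 CPM, and the lowest miR-193b-3p of TI, 2.35 CPM. The skeletal muscle marker sum of TIM 2 was 142 CPM, near the TIM median of 140.2 CPM. The part of these values in the TIM 2 levels was not tested.

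The reads of the 5p arms show how the 5p reads alone were split between the copies of miR-365. The split of the 3p reads, 89.9% of miR-365 reads over AG, is not known because they could not be assigned to a locus. miR-365-1-5p made up 27.2% (95% exact Clopper-Pearson interval 22.8 to 32.0), 40.0% (32.8 to 47.6) and 30.8% (24.2 to 38.0) of the 5p reads in the AG libraries. In 7 of 8 TIM libraries it made up 69.2 to 89.3%, each above every AG value, and in TIM 8 it made up 41.7% of 12 reads (15.2 to 72.3). The TIM libraries held 12 to 119 such reads. In TIM 4 the share was 69.2% of 13 reads (38.6 to 90.9), and the intervals of TIM 4 and TIM 8 overlapped those of AG. In the 6 TI libraries with reads it ran from 29.4 to 73.7% on 2 to 19 reads, and every interval overlapped those of AG except that of TI 7 (73.7%, 48.8 to 90.9). The means were 32.7 ± 6.60% (SD, n = 3) over AG, 48.5 ± 15.3% (SD, n = 6) over TI and 75.4 ± 15.3% (SD, n = 8) over TIM. In TIM 2 alone it was 89.1% of 119 reads (82.0 to 94.1). This share is made of the values that chose the members and is a description.

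miR-365-3p made up 89.9 ± 1.58% (SD, n = 3) of all miR-365 reads over AG, 74.2 ± 16.3% (SD, n = 7) over TI and 62.5 ± 12.3% (SD, n = 8) over TIM. No TIM library, at 41.4 to 76.8%, reached the lowest AG library at 88.1%, while TI 3 held only 3p reads. For miR-193a the 3p arm made up 23.4 ± 6.94% (SD, n = 3) of the reads over AG, 41.3 ± 31.2% (SD, n = 7) over TI and 37.9 ± 12.7% (SD, n = 8) over TIM, with 5 to 35 reads per TI library and a range of 0 to 83.9%. For miR-193b the 3p arm made up 95.2 ± 0.117% (SD, n = 3), 97.6 ± 1.17% (SD, n = 7) and 98.1 ± 1.16% (SD, n = 8). Of the 3p reads with the shared miR-193 seed, miR-193b gave 91.3 ± 2.12% (SD, n = 3) over AG, 93.1 ± 6.56% (SD, n = 7) over TI and 98.1 ± 0.720% (SD, n = 8) over TIM. The 3p arm of miR-193b thus held most reads in every library. The 3p reads of miR-365, summed over both hairpins, held most in AG and TI but not in TIM 6 (46.7%) and TIM 7 (41.4%). In AG the 5p arm of miR-193a held most reads.

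**Figure D3:**
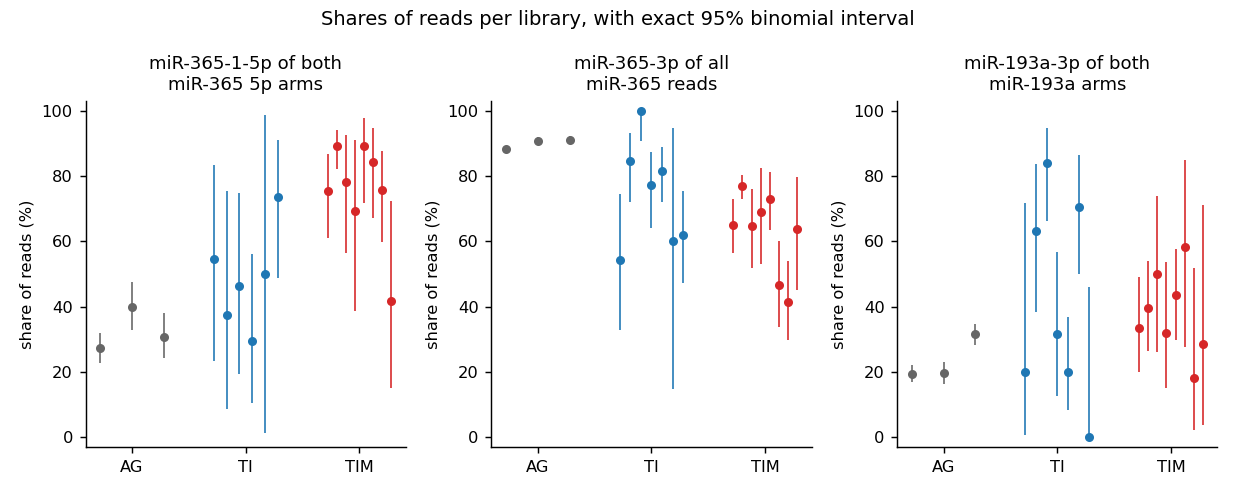
Shares of reads in percent per library, with exact 95% binomial intervals that cover counting error only, for miR-365-1-5p among both miR-365 5p arms, miR-365-3p among all miR-365 reads and miR-193a-3p among both miR-193a arms. For the first share the points of 7 of 8 TIM libraries sit at 69.2 to 89.3%, above the AG libraries at 27.2 to 40.0%. The TI intervals are wide, and those of TIM 4 and TIM 8 overlap AG.

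Whether members rise and fall together from tumor to tumor does not depend on the group differences and was tested within each tumor type, over 15 pairs in each, or 30 relations in all, with exact permutation of the libraries (two-sided, Benjamini-Hochberg over the 30). By Pearson's r, 0 of 30 pairs passed, with 2 of 15 in TI and 7 of 15 in TIM at an unadjusted p under 0.05. No share over pairs of other miRNAs stands beside these unadjusted counts, and nothing is read from them. In TIM the highest was miR-193b-3p with miR-365-3p, at r = 0.87 (exact permutation p = 0.0036, adjusted 0.074) and rho = 0.62 (exact permutation p = 0.11, adjusted 0.38), with r = 0.78 without the 2 most distant libraries. Here and below, these are the libraries farthest from the median of the first-named member, for the miR-193a arms miR-193a-3p. An extreme library of the other member could stay in. The arms of the miR-193a hairpin had r = 0.82 (exact permutation p = 0.014, adjusted 0.11) and rho = 0.76 (exact permutation p = 0.037, adjusted 0.37) in TIM, with r = 0.80 without the 2 most distant libraries. In TI the same arms had r = 0.02 (exact permutation p = 0.98, adjusted 0.98) and rho = 0.39 (exact permutation p = 0.40, adjusted 0.58), with r = 0.31 without the 2 most distant libraries. The difference between the tumor types was not tested.

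miR-193a-3p and miR-193b-3p lie on different chromosomes and share a seed. In TIM they had r = 0.81 (exact permutation p = 0.015, adjusted 0.11) and rho = 0.86 (exact permutation p = 0.011, adjusted 0.16), with r = 0.94 without the 2 most distant libraries. TIM 2 was not among those 2, and without it r was 0.88. The chromosome 16 partners miR-193b-3p and miR-365-1-5p had r = 0.76 in TIM (exact permutation p = 0.034, adjusted 0.14) and rho = 0.55 (exact permutation p = 0.17, adjusted 0.43). That relation rested on the 2 libraries most distant in miR-193b-3p, since r was -0.05 without them, and it was 0.45 without TIM 2. The chromosome 11 partners miR-193a-3p and miR-365-2-5p had r = -0.49 (exact permutation p = 0.22, adjusted 0.43) and rho = -0.62 (exact permutation p = 0.11, adjusted 0.38) in TIM, with r = 0.16 without the 2 most distant libraries. In TI these partners had r = -0.81 (exact permutation p = 0.030, adjusted 0.14) and rho = -0.64 (exact permutation p = 0.14, adjusted 0.38), and r was 0.06 without the 2 most distant libraries. The chromosome 16 partners had r = -0.14 in TI, and miR-193a-5p with miR-365-2-5p had r = 0.51 in TI and -0.10 in TIM. Members of one locus thus did not pass a test of moving together in either tumor type. miR-365-2-5p held only 0 to 12 reads per TI library and 3 to 13 per TIM library. At such counts the tests could miss a relation, so they do not show that the members of a locus move independently.

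One pair passed by rank. In TI, miR-193a-3p and miR-365-1-5p had rho = -1 (exact permutation p = 0.00040, adjusted 0.012), with r = -0.88 (exact permutation p = 0.0050, adjusted 0.074) and r = -0.86 without the 2 most distant libraries. These values rest on at most 26 and 14 reads per library, and CPM of one library share a total and a TMM factor.

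**Figure D4:**
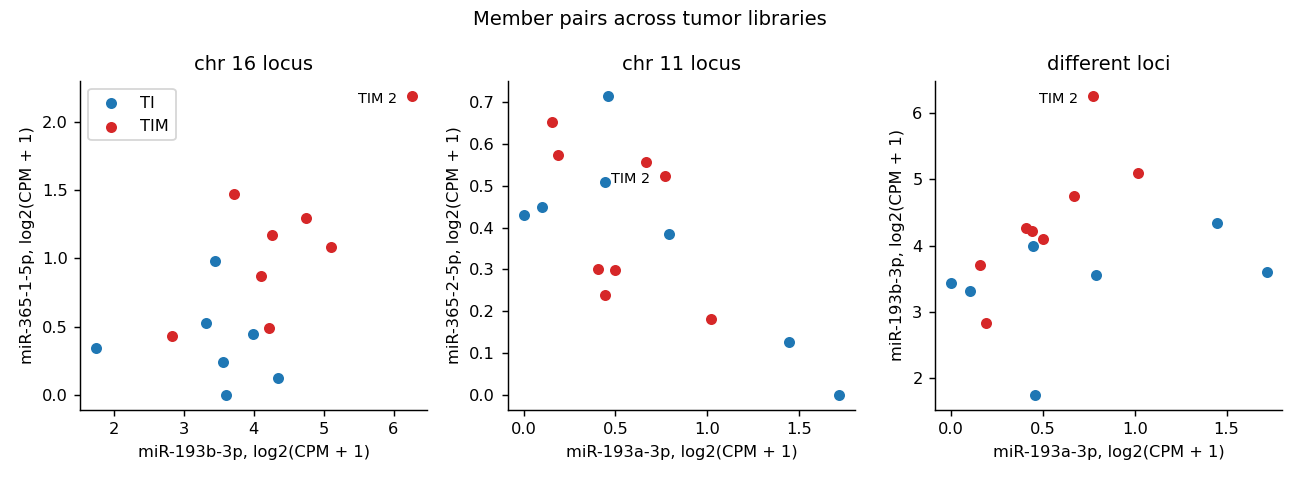
Member pairs across the 7 TI and 8 TIM libraries, both axes in log2(CPM + 1), for the partners at the chromosome 16 locus, partners at the chromosome 11 locus and the miR-193 3p arms of the 2 loci. TIM 2 stands at the upper right for the chromosome 16 partners, and r in TIM is 0.76, -0.49 and 0.81 from left to right.

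The miRNAs most like the members over all 18 libraries were searched among 398 with a mean of at least 10 CPM, by Pearson's r on log2(CPM + 1). Such an r mostly reflects the AG and tumor groups and is a description. For miR-365-3p they were miR-10a-3p (r = 0.98), miR-3081-3p (0.97) and miR-10a-5p (0.96), and after removing the group means their r was 0.82, 0.76 and 0.80. For miR-193a-3p they were miR-30d-3p (r = 0.89), miR-3081-3p (0.86) and miR-196a-1-3p (0.86), with 0.36, 0.10 and 0.01 after removing the group means. For miR-193b-3p they were miR-100-5p (r = 0.82), miR-107-3p (0.82) and miR-204-5p (0.80), with 0.54, 0.55 and 0.57 after removing the group means. The miR-10a arms, made from a hairpin in the Hoxb gene cluster, were picked for a high r among the 398 in these same libraries. With the other members, miR-365-3p had its highest r after removing the group means with miR-365-1-5p, at 0.59. The members were not picked for r, and miR-365-1-5p held 0 to 14 reads per TI library. No conclusion is therefore drawn from which r is higher.

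Other miRNAs that have been described as acting in brown and beige fat were taken from a list, 13 as promoting and 6 as restraining that program. Of the 13 promoting miRNAs, 9 fell in TI, against 29.3% of all tested miRNAs, and 10 fell in TIM, against 25.9%, by an adjusted p of 0.05 in limma. None of them rose, where 26.4% of all miRNAs did in TI and 25.5% in TIM. Between the tumor types 2 were lower in TIM, against 1.79% of all miRNAs, namely miR-196a-5p and miR-203-3p. The promoting miR-196a-5p, described after its values were seen, did not move alike in the tumor types. Its mean was 63.1 ± 28.4 CPM (SD, n = 3) for AG, 293 ± 143 CPM (SD, n = 7) for TI and 16.6 ± 22.6 CPM (SD, n = 8) for TIM, with log2 fold changes against AG of 1.85 (adjusted p = 0.13 from limma) and -2.65 (adjusted p = 0.034 from limma) and of -4.50 in TIM against TI (adjusted p = 0.0014 from limma). The median log2 fold change of the 13 promoting miRNAs was -2.26 in TI and -2.41 in TIM, against -0.01 and 0.18 over all miRNAs. Of the 6 restraining miRNAs, 0 passed in any comparison in limma. At an unadjusted p under 0.05 the number was 1 in TI, 2 in TIM and 0 between them. Nothing is read from these unadjusted counts, since no share of all miRNAs stands beside them. After adjustment 0 passed with edgeR, while DESeq2 called 1 in TI and 3 in TIM. Of all miRNAs, edgeR called 402 in TI, 352 in TIM and 3 between them, in either direction. DESeq2 called 437 of all miRNAs in TI and 423 in TIM. The counts of the 6 restraining miRNAs are therefore a description. The lowest of the promoting miRNAs were the arms of miR-378a, made from an intron of Ppargc1b. miR-378a-3p averaged 24243 ± 12434 CPM (SD, n = 3) over AG, 625.3 ± 423 CPM (SD, n = 7) over TI and 1407 ± 640.1 CPM (SD, n = 8) over TIM, with log2 fold changes of -5.43 (standard error 0.55, adjusted p = 3.4e-07 from limma) and -4.12 (standard error 0.54, adjusted p = 7.0e-06 from limma). miR-378a-5p had log2 fold changes of -5.31 and -4.28.

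The arms of miR-455, which has been described as a brown fat inducer, followed. miR-455-5p averaged 669 ± 154 CPM (SD, n = 3) over AG, 69.1 ± 53.9 CPM (SD, n = 7) over TI and 119 ± 111 CPM (SD, n = 8) over TIM, with log2 fold changes of -3.52 (standard error 0.70, adjusted p = 0.00044 from limma) and -2.99 (standard error 0.69, adjusted p = 0.0016 from limma). miR-455-3p had -3.44 in TI and -3.05 in TIM. Smaller changes were seen for miR-32-5p, at -1.20 and -1.11, miR-26b-5p, at -1.68 and -2.05, and miR-26a-5p, at -2.26 and -2.32. The list was put together with earlier results of these libraries known and is not independent evidence of a direction.

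**Figure D5:**
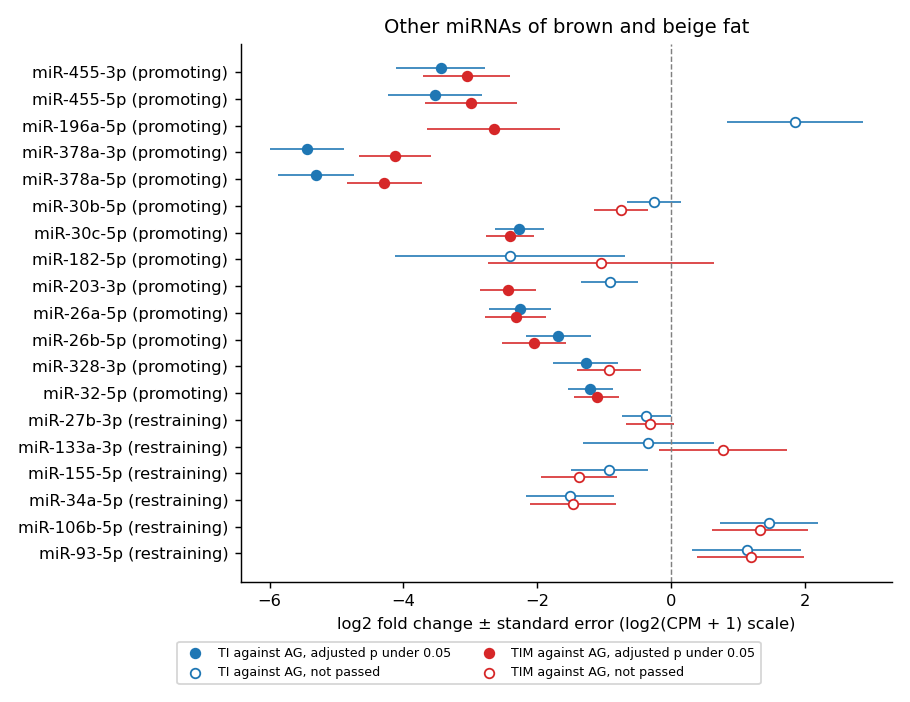
Log2 fold changes with standard errors, on the log2(CPM + 1) scale, of 13 promoting and 6 restraining miRNAs of brown and beige fat in TI (blue) and TIM (red) against AG. Filled points passed an adjusted p of 0.05 in limma. The miR-378a arms lie lowest, at -5.43 and -5.31 in TI, and no restraining miRNA passed.

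Markers of other cell types moved with the same groups. The summed level of the promoting list, of which miR-26a-5p was the largest part, was 70413 to 88444 CPM in AG. It was 10449 to 24024 CPM in TI and 7650.4 to 24548 CPM in TIM. Marker counts stand against 29.3% of all miRNAs lower and 26.4% higher in TI, and 25.9% lower and 25.5% higher in TIM. Of 7 neuronal miRNAs, 6 were higher in each tumor type, and their sum was 3575 to 8906 CPM in AG against 39736 to 91929 CPM over the tumors. Of 4 leukocyte miRNAs, 3 were lower in TI and 4 in TIM, with a sum of 414 to 602 CPM in AG, 51.1 to 333 CPM in TI and 67.5 to 212 CPM in TIM. The endothelial miRNAs, arms of miR-126a, were lower in 2 of 2 cases, with a sum of 38529 to 46092 CPM in AG and 1704 to 8943 CPM over the tumors. Of 4 smooth muscle and stroma miRNAs, 3 were lower in each tumor type in limma, with a sum of 122810 to 209646 CPM in AG and 15888 to 171354 CPM over the tumors. Nearly all of that sum was miR-143-3p, with a mean of 167923 CPM over AG, 70441.5 CPM over TI and 49725 CPM over TIM. In TI edgeR called 1 and DESeq2 2 of these 4, and in TIM both called 4. Of all miRNAs, in either direction, edgeR called 402 in TI and 352 in TIM, and DESeq2 called 437 in TI and 423 in TIM. The liver marker miR-122 was lower in both, with 779.8 to 2592 CPM in AG against 4.25 to 82.4 CPM over the tumors. Of 2 neuroendocrine, 2 erythroid and 5 epithelial miRNAs, and of the 3 tested of 4 skeletal muscle miRNAs, 0 passed in either tumor type against AG in limma, also at an unadjusted p under 0.05 and with edgeR, while DESeq2 called 1 epithelial miRNA in TI. Nothing is read from the unadjusted count, since no share of all miRNAs stands beside it. The summed muscle level of TIM 1 was 22979.9 CPM. The part of any of these in the levels of the miR-193 and miR-365 members was not tested.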

How the data were processed

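Small RNA libraries of 3 AG, 7 TI and 8 TIM samples were used. The submitters' processing notes name cutadapt 2.8, Bowtie2 2.3.5.1 with mm10, featureCounts 2.0.0 and edgeR 3.40. The table deposited by the authors holds one signal for each miRNA and library, a CPM for which the total was multiplied by a TMM factor. Columns with the authors' own log2 fold changes, p-values and FDR were not used. Reads were recovered from the steps of the low values, and 100% of the values above 0 were whole within 0.01 read. Differences were computed with limma 3.58.1 (lmFit, eBayes with trend, R 4.3.3) on log2(CPM + 1) over 726 miRNAs that reached 1 CPM in 3 or more libraries. One model held the 18 libraries, and p-values were adjusted by Benjamini-Hochberg. edgeR 4.0.16 and DESeq2 1.42.0 on recovered reads, other pseudocounts (0.1, 5), scalings, filters and libraries left out were alternatives. Relations within tumor types were tested by exact permutation (Python 3.11.15, numpy 2.4.6, scipy 1.17.1). Scripts were tested on simulated data. Whether the samples of a group came from separate mice is not given per column, so p-values measure the spread between these samples. No libraries were near-identical. Members and lists were chosen with earlier results of these data known. Genes named are the members, miR-193b-5p, the 3 miRNAs most like each of 3 members, and, in each tumor type, the 3 lowest and 3 highest list miRNAs past the threshold in both, which makes 4 and 3 over both types. miR-148a-3p, marker miRNAs, miR-196a-5p and miR-203-3p are named outside this rule.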

Additional observations from a re-analysis of the deposited data

Results flagged for a closer look

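The levels of the 6 members in TI and TIM were checked at both ends for a single library far from the others, on the log2(CPM + 1) scale. This made 24 comparisons, of which chance gives about 0.6 and 2 were found. miR-193b-3p in TI had a low library, TI 5, with 2.35 CPM, whose gap to the next was 0.602 of the range of the group against a critical value of 0.568. miR-365-3p in TIM had a high library, TIM 2, with 13.2 CPM, whose gap to the next was 0.623 of the range against a critical value of 0.526. TIM 2 was also the highest TIM library for miR-193b-3p and miR-365-1-5p.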

How the results depend on the processing

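The calls on members against AG were set by their choice and are counted as a description. Of these, 234 of 240 under an alternative kept their direction and passed, and 6, all in TIM, kept their direction but did not pass. These were miR-193b-3p when the totals omitted miR-148a-3p (-1.46) and without AG 3 (-1.73), and miR-365-1-5p without the TMM factor (-0.82), with edgeR (-1.45), with miR-148a-3p left out (-0.72) and without AG 1 (-0.87). Sizes moved with the pseudocount and tool, for miR-365-2-5p in TI from -4.61 to -1.23. With at least 10 CPM required, 3 members were left to test, and 3 passed in TI and 3 in TIM. With one library left out, 6 members passed in TI and 5 to 6 in TIM, and 242 to 381 miRNAs of all passed in TIM against AG, 242 without AG 1.

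Between TIM and TI, 38 of all miRNAs passed, 21 with a pseudocount of 5, 155 without the TMM factor, 17 when 10 CPM was required, 23 with only these groups in the model, 3 with edgeR and 123 with DESeq2, and 24 to 72 with one library left out. Of the members 0 passed, 1 with a pseudocount of 0.1, 2 without the TMM factor, 1 with median ratio scaling, 1 with DESeq2, 1 with miR-148a-3p left out, and 0 to 1 with one library left out, where it was miR-365-1-5p without TI 7, TIM 4 or TIM 8. Differences near 0 changed sign for miR-193a-3p without the TMM factor (0.0014), miR-193a-5p without TIM 5 (-0.0045), miR-365-2-5p without TI 3 (-0.020) and miR-365-3p with DESeq2 (-0.078) and without TIM 2 (-0.024). With one library left out the differences ran from -0.0045 to 0.167 for miR-193a-5p, from -0.020 to 0.099 for miR-365-2-5p and from -0.024 to 0.380 for miR-365-3p. Of the pairs within TI, 0 passed, 1 with a pseudocount of 0.1, 1 by Spearman's rho and 0 to 1 with one library left out. The cause of these changes was not tested.

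Scaling moved all miRNAs together. Without the TMM factor the median log2 fold change of all shifted by -0.14 in TI, 0.23 in TIM and 0.43 in TIM against TI, and when the totals omitted miR-148a-3p, an alternative chosen after seeing the data, by 0.35, 0.39 and 0.07. When they omitted it, 40.7% of the calls in TI and 34.3% in TIM were lower, against 52.6% and 50.4%, while the members stayed lower. No paired analysis was possible because the names of the columns hold no replicate number. Depth limits miR-193a-3p, with 0 to 26 reads per TI library and 2 to 23 per TIM library.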
